A study of Homo sapiens with 9 samples.

Results

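The mitochondrial genome encodes 6 subunits of respiratory chain complexes III and IV and of ATP synthase, which is complex V: MT-CYB of complex III, MT-CO1, MT-CO2 and MT-CO3 of complex IV, and MT-ATP6 and MT-ATP8 of complex V. They were taken by gene name from the ribosome profiling tables of the human hepatoma cell line Huh-7, and all 6 were listed both among the 9157 transcripts of the table for the compound PF8503 and among the 8839 of the table for the compound PF846. The cells carried no engineered change named in the labels. One group received 1.5 μM PF8503 for 1 hr, another 1.5 μM PF846 for 1 hr, and the vehicle group 0.5% DMSO for 1 hr, with 3 libraries in each of the groups and 9 in all. PF846 is a small molecule that stalls translation of selected nascent chains on the cytosolic ribosome, and PF8503 is a related compound. The study's methods describe the 3 libraries of a group as biological replicates. The same vehicle libraries serve both comparisons, and the 6 subunits were picked with their values in these tables known, so all values for them are given as a description, without a test.

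Ribosome profiling sequences the stretches of mRNA that ribosomes shield from nuclease. Mitochondrially encoded mRNAs are read in the matrix by mitochondrial ribosomes, which differ from cytosolic ribosomes and are not arrested by cycloheximide, the drug in the lysis buffer here. Their products, most of them hydrophobic, enter the inner membrane while being made. There they join subunits that are encoded in the nucleus, translated in the cytosol and imported. Complex III passes electrons from ubiquinol to cytochrome c, complex IV passes them on to oxygen, and complex V uses the resulting proton gradient to make ATP.

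The 6 coding sequences lie on the plus strand of the mitochondrial chromosome (GRCh38), and each is a single exon of its gene. MT-CO1 (ENSG00000198804) spans chrM:5904-7445, MT-CO2 (ENSG00000198712) spans chrM:7586-8269 and MT-CO3 (ENSG00000198938) spans chrM:9207-9990. MT-CYB (ENSG00000198727) lies apart from these at chrM:14747-15887. MT-ATP8 (ENSG00000228253) at chrM:8366-8572 and MT-ATP6 (ENSG00000198899) at chrM:8527-9207 are read from a shared mRNA in different frames. Their last 30 bases are shown because the counted region stops short of them and because their endings differ, with the stop codon, or the single base that polyadenylation completes to a stop codon, in capitals:
MT-CYB: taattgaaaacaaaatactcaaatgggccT
MT-CO1: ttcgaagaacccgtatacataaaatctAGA
MT-CO2: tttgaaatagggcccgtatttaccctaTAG
MT-CO3: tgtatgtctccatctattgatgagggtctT
MT-ATP6: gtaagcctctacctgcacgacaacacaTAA
MT-ATP8: tcgcttcattcattgcccccacaatccTAG
MT-CO1 thus ends in AGA, which is an arginine codon on cytosolic ribosomes. All 6 start with ATG. TGA, a stop codon for cytosolic ribosomes and a tryptophan codon in mitochondria, occurs in frame 16 times in MT-CO1, 11 times in MT-CYB, 9 times in MT-CO3, 3 times each in MT-CO2 and MT-ATP6 and 2 times in MT-ATP8.

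MT-ATP8 and MT-ATP6 share 46 bases at chrM:8527-8572. This stretch is shown because footprints that lie wholly inside it fit both transcripts; the start codon of MT-ATP6 and the stop codon of MT-ATP8 are in capitals:
MT-ATP8 and MT-ATP6: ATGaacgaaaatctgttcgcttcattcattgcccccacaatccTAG
Reads with more than 1 position were dropped by the authors, and the shared stretch covers 6 counted codons of each transcript. MT-ATP6 and MT-CO3 share 1 base.

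The values are the authors' means over the 3 libraries of a group, in read counts normalized by library size factors. Only these means were used, so every value below is a mean without an error, the depth of each library is unknown, and no interval can be given for any difference. Against vehicle, all 6 subunits had a lower mean with PF8503 and all 6 a higher mean with PF846. The median log2 ratio to vehicle over the 6 was -0.37 with PF8503 and 0.45 with PF846, while over all transcripts it was 0.013 and 0.00086. With PF8503, 5 of the 6 were 1.2-fold or more lower, where 3.83% of all 9157 transcripts were. With PF846, 6 of 6 were 1.2-fold or more higher, where 1.43% of all 8839 transcripts were. At 1.1-fold, 6 were lower with PF8503 (11.6% of all transcripts) and 6 higher with PF846 (7.41% of all transcripts). At 1.5-fold, 0 of the 6 were lower with PF8503 (0.754% of all transcripts) and 0 higher with PF846 (0.0113% of all transcripts). On the log2 scale, the central 95% of all transcripts ran from -0.32 to 0.28 in the PF8503 comparison and from -0.23 to 0.22 in the PF846 comparison. Without RNA sequencing of the same lysates, fewer ribosomes on an mRNA and less of the mRNA cannot be told apart. Nor, in a bulk lysate, can a smaller share of cells with much of the mRNA and less of it in every cell. Whether footprints of mitochondrial ribosomes were recovered alike in each group was not tested. The library names in the labels end in codes of the form used for sequencing lanes, and no code is shared between groups, so if the codes mark lanes, lane and group cannot be told apart either.

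**Figure D1:**
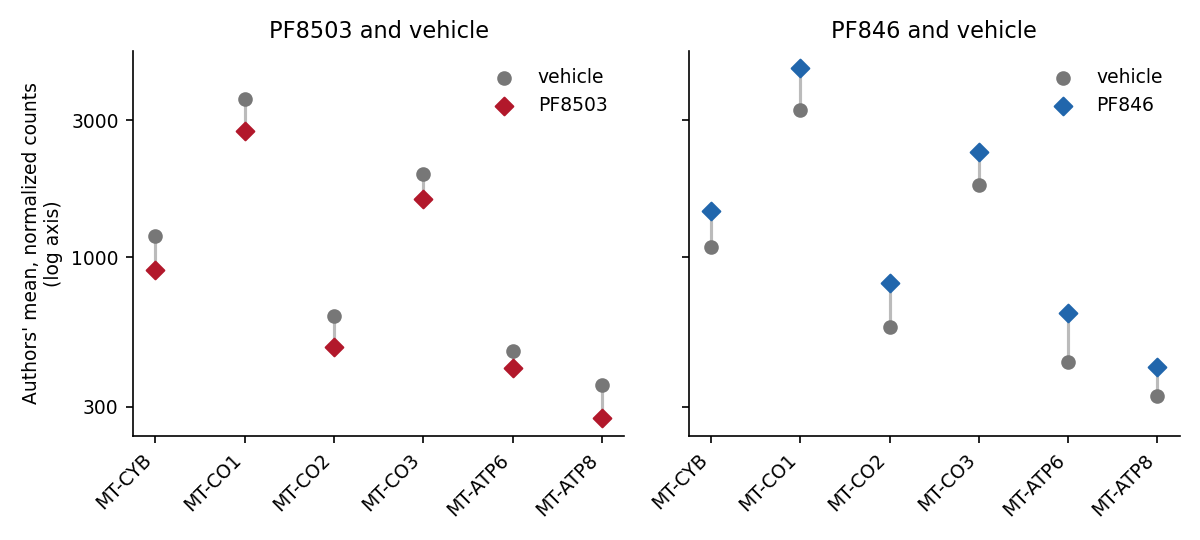
Authors' mean in normalized counts (log axis) of the 6 subunits with vehicle (circles) and compound (diamonds), for the PF8503 table (left) and the PF846 table (right). All 6 diamonds lie below their circles with PF8503 and above them with PF846, and no error bars are drawn because values of single libraries were not used.

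Complex III holds 1 of the 6. MT-CYB encodes cytochrome b, the subunit that carries the b-type hemes and oxidizes ubiquinol. Its mean was 1188 normalized counts with vehicle and 903 with PF8503, a log2 ratio of -0.40. In the PF846 table, its mean was 1087 with vehicle and 1447 with PF846, a log2 ratio of 0.41. The mean was thus 1.32-fold lower with PF8503 and 1.33-fold higher with PF846. MT-CYB had the lowest log2 ratio of the 6 with PF8503, and with PF846 it lay between MT-CO1 and MT-CO3. Over all transcripts it stood at rank 153 of 9157 from the lowest with PF8503 and at rank 21 of 8839 from the highest with PF846.

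Complex IV holds 3 of the 6, and these form its catalytic core. MT-CO1 encodes the subunit with the heme and copper center at which oxygen is reduced. Its mean was 3579 normalized counts with vehicle and 2765 with PF8503, a log2 ratio of -0.37. In the PF846 table it was 3277 with vehicle and 4567 with PF846, a log2 ratio of 0.48. MT-CO1 had the highest summed counts of the 6 in every group, and the ratio of 0.48 stood at rank 8 from the highest of all 8839 transcripts.

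MT-CO2 encodes the subunit that takes electrons from cytochrome c through its copper center. Its mean was 624 with vehicle and 484 with PF8503 (log2 ratio -0.37), and 571 with vehicle and 812 with PF846 (log2 ratio 0.51). Its log2 ratio stood at rank 182 from the lowest with PF8503 and at rank 7 from the highest with PF846. The log2 ratios of MT-CO2 and MT-CO1 were alike with both compounds, and the level of MT-CO1 per counted codon was 2.42 times that of MT-CO2 with vehicle, 2.41 times with PF8503 and 2.37 times with PF846.

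MT-CO3 encodes the remaining core subunit, which carries no metal center. Its mean was 1946 with vehicle and 1600 with PF8503, a log2 ratio of -0.28. In the PF846 table it was 1782 with vehicle and 2320 with PF846, a log2 ratio of 0.38. These were the smallest departures from vehicle among the 3 mitochondrially encoded complex IV subunits with both compounds. With PF8503, MT-CO3 lay just past 1.2-fold, at 1.22-fold lower. Its level per counted codon was 2.69 times that of MT-CO2 with vehicle, 2.85 times with PF8503 and 2.47 times with PF846.

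Complex V holds the other two. MT-ATP6 encodes subunit a of the membrane sector, which with the ring of c subunits forms the proton path. Its mean was 468 with vehicle and 410 with PF8503, a log2 ratio of -0.19. In the PF846 table it was 428 with vehicle and 636 with PF846, a log2 ratio of 0.57. MT-ATP6 was the only member that did not reach 1.2-fold with PF8503, at 1.14-fold lower, and with PF846 it had the largest ratio of the 6. Only ZNF16, listed at a mean of 51.6 with vehicle and 79.5 with PF846, had a higher ratio among all 8839 transcripts, with a log2 ratio of 0.62.

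MT-ATP8 encodes a small subunit of the same membrane sector. Its mean was 358 with vehicle and 273 with PF8503 (log2 ratio -0.39), and 327 with vehicle and 414 with PF846 (log2 ratio 0.34). Although both proteins are made from the same mRNA, MT-ATP8 had the lower log2 ratio of the pair with both compounds. Its level per counted codon was 3.23 times that of MT-ATP6 with vehicle, 2.81 times with PF8503 and 2.75 times with PF846, so the excess over MT-ATP6 was smaller with either compound than with vehicle. Both comparisons use the same vehicle libraries, so the shared direction is not a separate observation for each compound. MT-ATP8 has the fewest counted codons of the 6, 49, against 207 for MT-ATP6.

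**Figure D2:**
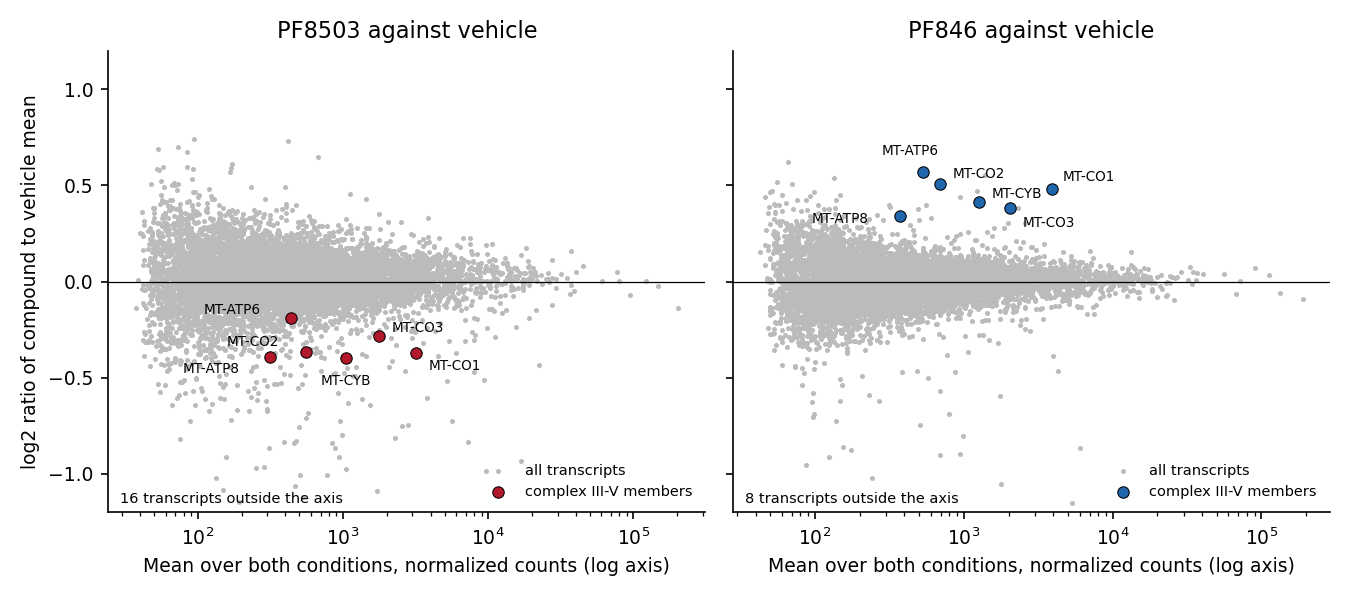
Log2 ratio of compound to vehicle mean against the mean over both conditions (log axis) for all transcripts (grey) and the 6 subunits (named), with PF8503 (left) and PF846 (right). The 6 lie from -0.40 to -0.19 with PF8503, among other lower transcripts, and from 0.34 to 0.57 with PF846, along the upper edge of the grey cloud; 16 and 8 transcripts fall outside the vertical axis.

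The position of the 6 among all transcripts was not the same with both compounds. With PF846 they ranked from 2 to 49 of 8839 counted from the highest log2 ratio, and with PF8503 from 153 to 622 of 9157 counted from the lowest. Low counts widen the spread of the ratios, so ranks were also taken among transcripts with a mean of at least 1000 normalized counts, which 3 of the 6 reach. Among the 2011 such transcripts in the PF846 table, MT-CO1 ranked 2, MT-CYB ranked 4 and MT-CO3 ranked 6 from the highest. Among the 2175 in the PF8503 table, MT-CYB ranked 30, MT-CO1 ranked 34 and MT-CO3 ranked 45 from the lowest. At this level 0.497% of transcripts were 1.2-fold or more higher with PF846 and 2.25% were 1.2-fold or more lower with PF8503. The PF846 ranks count from the highest ratio and the PF8503 ranks from the lowest, and these ends are unequally filled. The lower end can also include transcripts counted only 3′ of a detected stall. The ranks therefore do not compare the size of the departures with the compounds.

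PF8503 and PF846 were given at the same dose and for the same time, so their ratios to vehicle can be set against each other for each of the 6, as 1 pair of compounds. The difference between the log2 ratio with PF846 and that with PF8503 was 0.81 for MT-CYB, which is 1.75-fold. It was 0.85 for MT-CO1 (1.80-fold), 0.87 for MT-CO2 (1.83-fold) and 0.66 for MT-CO3 (1.58-fold). For the complex V subunits it was 0.76 for MT-ATP6 (1.70-fold) and 0.73 for MT-ATP8 (1.66-fold). The 6 differences thus lay within a span from 0.66 to 0.87, with a median of 0.78, whereas the median over the 8775 transcripts in both tables was -0.011 and the central 95% lay between -0.27 and 0.30. All 6 were 1.2-fold or more higher with PF846 than with PF8503, where 3.21% of these transcripts were, and they held ranks 21 to 51 of 8775. A mean below vehicle with PF8503 together with one above vehicle with PF846 was found for 16.4% of these transcripts. The 6 were chosen with these directions known. The ratios of a transcript with both compounds share the vehicle libraries and so are not independent. An error in the vehicle mean would shift both ratios in the same direction.

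The shared vehicle libraries also show whether the same codons were counted in both tables. The authors counted only 3′ of a detected stall where there was one, so the counted region of a transcript can differ between the tables. The vehicle means of the PF8503 table were 1.09 times those of the PF846 table, and for all 6 subunits this ratio departed from its median by less than 0.002 on the log2 scale. The same held for 98.5% of the 8775 transcripts. The ratios of the 6 were therefore formed over the same codons with both compounds.

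As a sum, the 6 subunits held 0.0776% of the authors' vehicle means, 0.0614% of the PF8503 means and 0.106% of the PF846 means. The log2 ratio of the summed means to vehicle was -0.34 with PF8503 and 0.45 with PF846, and without MT-CO1, the most abundant of them, it was -0.32 and 0.42. By complex, the summed log2 ratio with PF8503 was -0.40 for complex III, -0.34 for complex IV and -0.27 for complex V. With PF846 it was 0.41, 0.45 and 0.47 in the same order. Complex III thus had the lowest and complex V the highest value with both compounds, though the spread within complex V, from MT-ATP8 to MT-ATP6, was wider than the gaps between complexes. Both orders rest on the same vehicle libraries.

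The mitochondrial genome encodes 13 proteins, and the other 7 are subunits of complex I, which takes electrons from NADH. They lay on the same side of vehicle as the 6 with each compound, and nearer to it at the median: -0.17 with PF8503 and 0.22 with PF846. With PF8503 their log2 ratios ran from -0.52 for MT-ND3 to -0.089 for MT-ND5, and 3 of the 7 were 1.2-fold or more lower. With PF846 they ran from 0.15 for MT-ND6 to 0.40 for MT-ND1, and 3 of the 7 were 1.2-fold or more higher. The ranges of the 6 and of complex I overlapped with both compounds. In the difference between PF846 and PF8503, the median was 0.38 for complex I and 0.78 for the 6, and again the ranges overlapped, since complex I reached 0.92. Of the summed means of the 13, the 6 subunits of complexes III to V made up 65.4% with vehicle, 62.5% with PF8503 and 68.7% with PF846.

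Read in the order of the coding sequences along the mitochondrial genome, the 5 neighboring members from MT-CO1 to MT-CO3 lay between MT-ND2 and MT-ND3, and MT-CYB came last. MT-ND1, MT-ND2 and MT-ND3, the complex I sequences on either side of that block, had log2 ratios of -0.52, -0.35 and -0.52 with PF8503 and of 0.40, 0.39 and 0.31 with PF846. The 4 sequences from MT-ND4L to MT-ND6, between MT-ND3 and MT-CYB, had the ratios nearest to 0 of the 13 with both compounds, from -0.17 to -0.089 and from 0.15 to 0.22. This grouping by position was made after the values were seen.

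**Figure D3:**
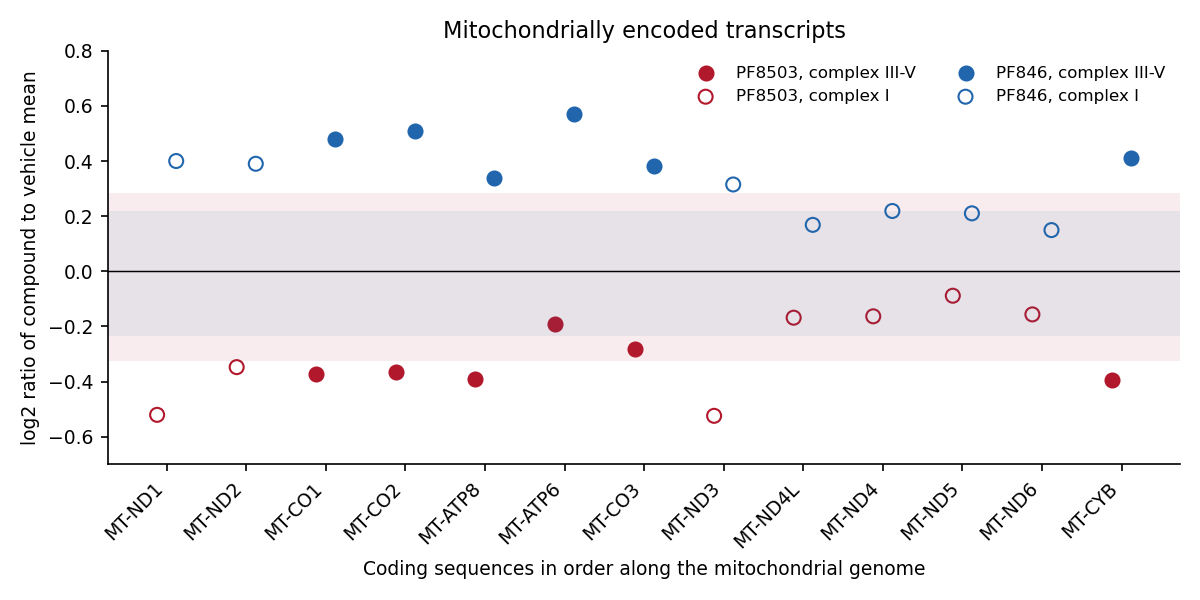
Log2 ratio of compound to vehicle mean for the 13 mitochondrially encoded transcripts in their order along the mitochondrial genome, for the 6 subunits of complexes III to V (filled) and the 7 of complex I (open); shaded bands mark the central 95% of all transcripts for PF8503 (-0.32 to 0.28) and PF846 (-0.23 to 0.22). All blue points (PF846) lie above 0 and all red points (PF8503) below it, with the 4 sequences from MT-ND4L to MT-ND6 nearest to 0.

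The nuclear-encoded partners of the 6 in the same complexes were centered near 0. Of 36 nuclear-encoded subunits of complexes III, IV and V in the tables, 3 were 1.2-fold or more higher and 2 lower with PF8503, and 1 was higher and 1 lower with PF846. Their median log2 ratio was 0.016 with PF8503 and 0.015 with PF846. Over all transcripts, 3.22% were 1.2-fold or more higher and 3.83% lower with PF8503, and 1.43% higher and 1.9% lower with PF846.

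In complex III, the partners of MT-CYB had log2 ratios with PF8503 from -0.10 for UQCRH to 0.27 for UQCR10, with UQCRB at -0.080 and the core protein UQCRC1 at 0.14. With PF846 they ran from -0.18 for UQCRH to 0.080 for UQCR10, with UQCRFS1, the iron-sulfur protein, at -0.040 and CYC1, cytochrome c1, at 0.066. The 1.2-fold line was passed by UQCR10 alone, with PF8503. Both values of MT-CYB, -0.40 and 0.41, lay outside the range of these 8 partners.

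In complex IV, 11 nuclear-encoded partners of MT-CO1, MT-CO2 and MT-CO3 were listed. The lowest with both compounds was COX6C, at -0.38 with PF8503 and -0.28 with PF846, so this subunit was below vehicle with PF846 where the 3 core subunits were above it. COX7C followed at -0.11 with PF8503 and COX6A1 at -0.097 with PF846. The highest were COX4I1 and COX8A, both at 0.098 with PF8503, and COX8A at 0.15 and COX7A2 at 0.14 with PF846. With PF846 the 3 core subunits, from 0.38 to 0.51, lay above all 11 partners.

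In complex V, 17 nuclear-encoded partners of MT-ATP6 and MT-ATP8 were listed. USMG5, a small subunit of the membrane sector, was the highest with both compounds, at 0.43 with PF8503 and 0.55 with PF846, so it lay close to MT-ATP6 with PF846 and on the other side of vehicle from it with PF8503. ATP5I followed at 0.35 with PF8503 and C14orf2 at 0.20 with PF846. The lowest were ATP5E, at -0.34 with PF8503 and -0.054 with PF846, and ATP5J, at -0.067 and -0.048. ATP5E was counted over different codons in the 2 tables, so its 2 values are not comparable.

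Proteins that assemble, transcribe or translate the 6 were also counted. Of all transcripts, 3.22% were 1.2-fold or more higher and 3.83% lower with PF8503, and 1.43% higher and 1.9% lower with PF846. Of the assembly factors of complexes III to V, 3 of 34 were 1.2-fold or more higher and 0 lower with PF8503, and 1 of 32 was higher and 1 lower with PF846. Their medians were 0.015 and 0.018. Among those with a mean of at least 100, PET117 and COX14 were the highest with PF8503, at 0.37 and 0.27, and COX20 and COX17 the lowest, at -0.19 and -0.17. With PF846 UQCC3 and PET117 were the highest, at 0.21 and 0.18, and UQCC1 and COX20 the lowest, at -0.21 and -0.20. Of 18 mitochondrial transcription and translation factors, TFB1M, which methylates the small mitochondrial ribosomal RNA, was 1.2-fold or more lower with PF8503, at -0.30, and 0 passed with PF846. Their medians were -0.028 and -0.017.

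Of the proteins of the mitochondrial ribosome, 5 of 76 were 1.2-fold or more lower with PF8503, where 3.83% of all transcripts were. They were led by MRPS12 and MRPS31, both at -0.67. In the same comparison 0 of 76 were 1.2-fold or more higher, where 3.22% of all transcripts were. With PF846, 1 of 77 was lower (1.9% of all transcripts), MRPL45 at -0.72, and 1 was higher (1.43% of all transcripts), MRPL36 at 0.28. The medians of the list were -0.0053 and -0.012. Of the 76 listed with both compounds, 72 were counted over the same codons, and the values of the others are not comparable between compounds. Of 13 glycolytic enzymes, made in the cytosol and working there, 0 passed 1.2-fold with either compound. Of all transcripts, 7.05% passed it in either direction with PF8503 and 3.33% with PF846, so 0 of 13 is near these shares. Among the glycolytic enzymes HK2 was the highest with PF8503, at 0.20, and PFKM with PF846, at 0.12. No list had a median as far from 0 as that of the 6 with either compound.

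**Figure D4:**
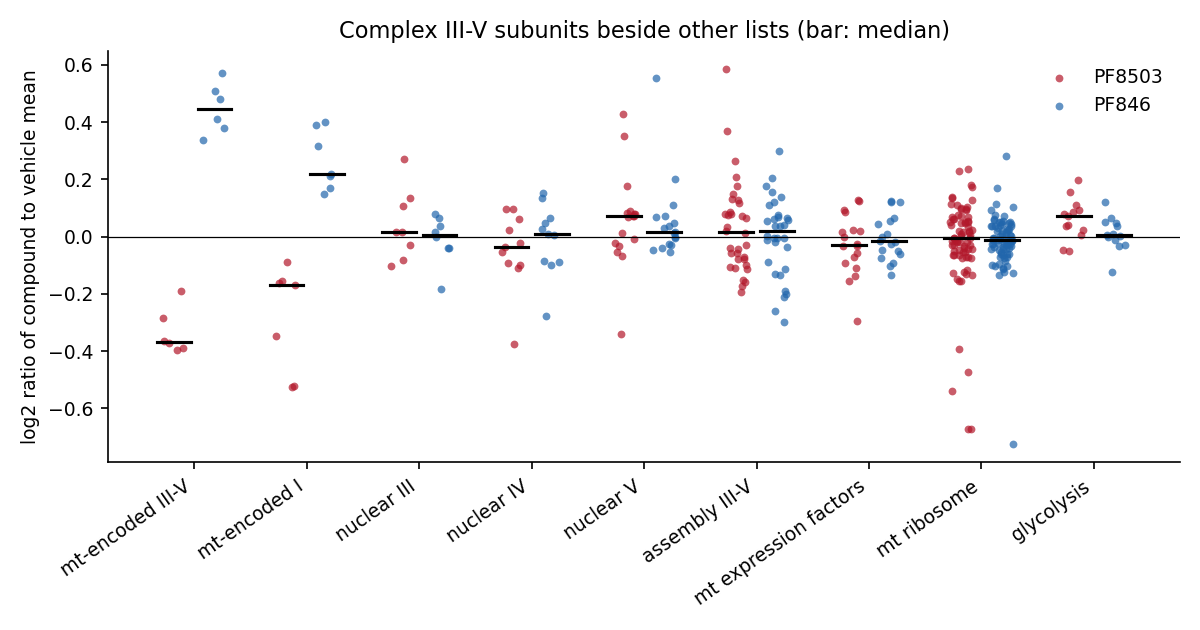
Log2 ratio of compound to vehicle mean for each transcript of 9 lists (points, PF8503 red and PF846 blue, spread sideways for visibility), with the median of each list as a bar. The bars of the 6 subunits of complexes III to V lie at -0.37 and 0.45 and those of mitochondrially encoded complex I at -0.17 and 0.22, and the bars of the 7 lists of nuclear-encoded proteins lie near 0.

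Levels were compared between genes per counted codon, in the vehicle means of the PF8503 table. MT-CO3 had the highest level of the 6, at 8.08 normalized counts per counted codon, then MT-ATP8 at 7.30 and MT-CO1 at 7.25. A lower set followed, with MT-CYB at 3.30, MT-CO2 at 3.00 and MT-ATP6 at 2.26. Without values of single libraries it cannot be said which neighbors in this order differ beyond their spread. Read per codon of the whole coding sequence, MT-ATP8 was at 5.18 and so below MT-CO1 at 6.96, since the codons left out at both ends are a large part of this short sequence. With vehicle, the core subunits of complex IV thus differed among themselves, MT-CO2 standing below both MT-CO1 and MT-CO3.

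The median over 9115 transcripts with a known length was 0.869 normalized counts per counted codon, and the share of transcripts below a member ran from 73.5% for MT-ATP6 to 91.6% for MT-CO3. The nuclear-encoded partners were mostly higher still. In complex III they ran from 7.81 to 24.9 with a median of 9.74, all above MT-CYB. In complex IV they ran from 9.20 for COX8A to 93.9 for NDUFA4 with a median of 27.0, all above MT-CO3. In complex V, over 16 partners without ATP5E, they ran from 6.61 for ATP5O to 42.8 for ATP5G3 with a median of 22.4, and ATP5O alone lay below MT-ATP8. These levels come from different kinds of ribosome, and cycloheximide does not arrest the mitochondrial kind. Whether footprints of both kinds were recovered alike was not tested, so the gaps do not measure a difference in translation.

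**Figure D5:**
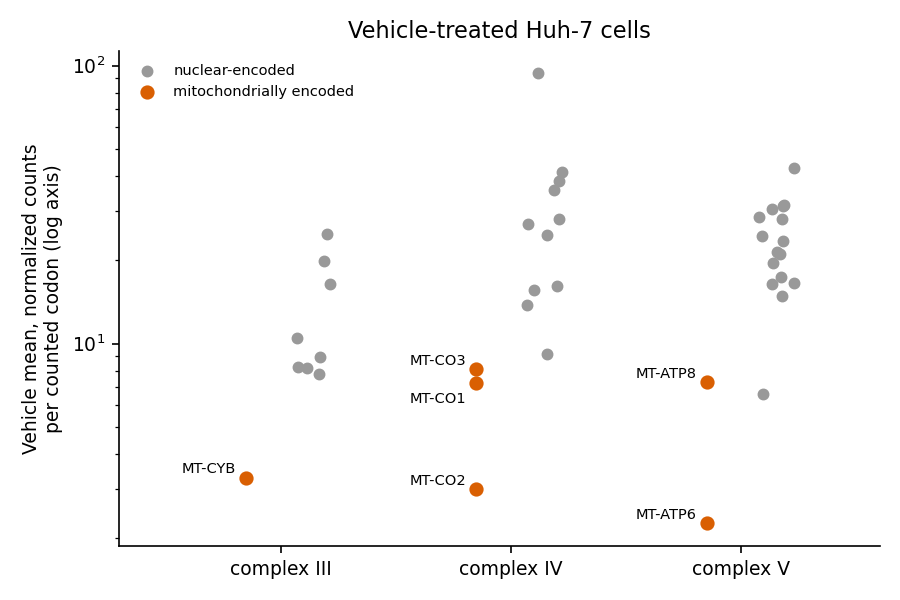
Vehicle mean in normalized counts per counted codon (log axis) of the mitochondrially encoded subunits (orange, named) and their nuclear-encoded partners (grey, spread sideways for visibility) in complexes III, IV and V. MT-CYB and the 3 complex IV members lie below all nuclear-encoded subunits of their complexes, and in complex V only ATP5O, at 6.61, lies below MT-ATP8, at 7.30. Orange and grey points come from mitochondrial and cytosolic ribosomes, whose footprint recovery was not compared.

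The 6 were chosen as mitochondrially encoded subunits, most of which are hydrophobic, so their composition is given as a description and not as a separate result. The mean Kyte-Doolittle hydropathy of the protein, which is positive for hydrophobic sequences, had a median of 0.55 over the 6, against -0.40 over all transcripts and -0.16 over their 36 nuclear-encoded partners, and 1.90% of all transcripts reached the median of the 6. The 7 mitochondrially encoded subunits of complex I were more hydrophobic, with a median of 0.73 and a range from 0.59 to 1.29. It ran from 0.95 for MT-ATP6 and 0.68 for MT-CO1 to -0.36 for MT-ATP8, which lay close to the median of all transcripts. The GC content of the coding sequences ran from 39.6% for MT-ATP8 to 46.6% for MT-CO3, against 40.2% to 47.7% for the complex I subunits and a median of 51.0% over all transcripts.

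The transcripts outside the mitochondrial genome whose pair of log2 ratios lay nearest to the median pair of the 6 were sought among 1995 with a mean of at least 1000 normalized counts. The nearest was ZFHX3, at -0.12 with PF8503 and 0.30 with PF846, a Euclidean distance of 0.28 on the log2 scale. NCAPD2 (-0.26 and 0.12), HIST1H2BD (-0.0059 and 0.30) and ADAMTS1 (-0.49 and 0.071) were among those that followed, at distances from 0.34 to 0.39. The member farthest from the median pair, MT-ATP6, lay at 0.22, and 0 of the 1995 transcripts were that near. This search left out transcripts at the level of MT-CO2, MT-ATP6 and MT-ATP8, whose own means are under 1000. Without a minimum mean, a setting chosen after the values were seen, 1 of 8762 transcripts was that near. The mitochondrially encoded complex I subunits were left out of both searches. Of these, MT-ND2, at -0.35 with PF8503 and 0.39 with PF846, lay within the ranges of the 6 with both compounds. MT-ND1 and MT-ND3 lay below the PF8503 range of the 6, and the rest of complex I above it. The distances rest on values that were known when the 6 were chosen.

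Hepatocyte markers fitted the label of the cells: 9 of 9 were listed, with vehicle means from 1296 to 212970 normalized counts. Their sum was 5.00% of the vehicle means, 4.77% of the PF8503 means and 4.87% of the PF846 means. Of 6 markers of blood, endothelial and stromal cells, 1 had a row among the PF8503 values and 2 among the PF846 values, with vehicle means from 51.1 to 170 normalized counts. The part of these markers in the values of the 6 was not tested.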

How the data were processed

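The authors deposited, as signal values, the mean of each condition over its libraries, in counts scaled with the size factors of DESeq. They had removed ribosomal RNA reads, aligned footprints of selected length with Bowtie to canonical coding transcripts (GENCODE version 24, GRCh38; versions of Bowtie and DESeq are not given in the sources used here) and kept reads with a single position. Reads were summed 3′ of a detected stall where its Z score reached 2, and in other transcripts without the first and last 10 codons, for transcripts above 30 counts. The replicate numbers in the authors' script differ from those of the labels. The deposited fold change, log2 and p-value columns of the authors' own comparisons were not used.

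Here the log2 ratio of the compound mean to the vehicle mean was computed for every transcript, with 1.2-fold (0.26 on the log2 scale) as the line for counts. No test was run, since no value of a single library was used. Depth per library is unknown. The difference between compounds is the difference of their log2 ratios. A counted region was read as the same where the ratio of the vehicle means lay within 0.002 (log2) of its median; a region shortened alike in both tables would pass unseen. Levels per codon assume that only the first and last 10 codons were left out. Coordinates, sequences and lengths come from GENCODE version 44 on GRCh38; 9177 of 9221 symbols (99.5%) matched. Of each list, up to 2 transcripts at each end with a mean of at least 100 were named, for complex I those at the extremes, and of the 5 nearest transcripts all but 1, which is not reported here; ZNF16, NDUFA4, ATP5O, ATP5G3 and the complex I sequences named by position were named after their values were seen. The members and lists were chosen with earlier results of these data known. The ratio step was tested on simulated data. Alternatives were folds of 1.1 and 1.5, centring on the median, scaling on the sum or on transcripts not encoded in mitochondria, a pseudocount of 1, minimum means of 100 and 1000, the direct ratio of compound means, whole coding length and, added after the values were seen, no minimum mean for the nearest transcripts. Python 3.11.15, numpy 2.4.6, pandas 2.3.3, matplotlib 3.10.9 and biopython 1.88 were used.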

Additional observations from a re-analysis of the deposited data

How the results depend on the processing

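No paired analysis was possible because the tables used here give condition means and no value of a single library; for the same reason no library could be left out in turn. Under centring on the median, scaling on the column sum or on transcripts not encoded in mitochondria, and a pseudocount of 1, the log2 ratios of the 6 subunits kept their signs with both compounds and moved by at most 0.013. Centring and scaling shift every ratio of a comparison by the same amount, and a pseudocount of 1 is small beside these means. The signs could hardly change under these settings, so their stability says little. Counts of members depended on the fold. At 1.5-fold, 0 were lower with PF8503 (0.754% of all transcripts) and 0 higher with PF846 (0.0113% of all transcripts). The 1.1-fold line was passed by 6 with PF8503 (11.6% of all transcripts lower) and 6 with PF846 (7.41% higher). Restricting to means of at least 1000 left 3 members. At 1.2-fold, 3 of them were lower with PF8503 (2.25% of transcripts at this level) and 3 higher with PF846 (0.497%). At 1.1-fold, the transcripts past the line in either direction with PF8503 numbered 6 of 7 in mitochondrially encoded complex I, 10 of 34 among assembly factors, 13 of 76 in the mitochondrial ribosome, 3 of 18 among transcription and translation factors and 2 of 13 in glycolysis, where 25.6% of all transcripts passed it. With PF846 they numbered 7 of 7 in complex I, 5 of 36 among nuclear-encoded subunits of complexes III to V and 10 of 32 among assembly factors, where 15.7% of all transcripts did. The mitochondrial ribosome had 3 of 77 with PF846, transcription and translation factors 0 of 18 and glycolysis 0 of 13. Nuclear-encoded subunits of complexes III to V numbered 6 of 36 with PF8503. Over the whole coding sequence, vehicle levels per codon were 2.74 for MT-CO2, 7.46 for MT-CO3, 2.06 for MT-ATP6 and 5.18 for MT-ATP8. The precision of the ratios, and whether replicates shared their direction, could not be judged from means.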
